A study of Mus musculus with 33 samples.

Results

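The 10 genes described here, Hk2, Hk3, Pfkp, Pfkl, Aldoa, Gapdh, Pgk1, Eno1, Pkm and Ldha, encode enzymes of glycolysis. They were taken by symbol, as every row of the deposited count and log2 FPKM tables whose Ensembl identifier carries one of these names. That gave 11 rows of the 21950 in the count table, because Aldoa also names a second identifier (ENSMUSG00000114515), which held 40 counts over all 33 libraries and is left aside. RNA was sequenced from cells sorted out of mouse brain under a disease induction labelled Cortical MS, which all 6 groups share. Blood-derived phagocytes were gated as CD45-high, CD11b-high and CCR2+, activated microglia as CD45-high, CD11b-high and CCR2-, and resting microglia as CD45-int and CD11b-int. Within each of these 3 populations, 6 libraries came from mice given a CSF1R inhibitor and 5 from mice given vehicle. CSF1R is the receptor kinase that microglia need to survive, and CCR2 is a chemokine receptor of inflammatory monocytes. The labels name no strain, genotype, age, inhibitor or dose, and no group without the disease induction was analysed here. They also do not say that libraries of a group came from separate animals, so p-values measure only the spread between these libraries.

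Glycolysis splits glucose into pyruvate and yields ATP and NADH without oxygen. Lactate dehydrogenase then turns pyruvate into lactate, which gives back the NAD+ that the pathway consumes. Macrophages and microglia are known to draw more on glycolysis when they are activated, and the transcription factor HIF-1 raises many genes of the pathway. Several steps are served by more than 1 gene: hexokinases trap glucose in the cell, phosphofructokinases commit it to the pathway, and both steps are points of control.

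Libraries held 11789803 to 22146705 counts and 9742 to 14861 genes with at least 1 count. The activated microglia gate stood apart from the other populations. Correlations between its replicates ran from 0.64 to 0.947, against 0.961 or more within every other group. Its 11 neutrophil markers took 2.02% to 14.2% of counts with inhibitor and 2.60% to 8.22% with vehicle, against at most 0.0644% in blood-derived phagocytes and at most 0.106% in resting microglia. Summed NK cell markers reached 12491 CPM (counts scaled to the library total) in 1 activated inhibitor library and 2787 CPM at most with vehicle, against at most 139.6 CPM in blood-derived phagocytes and 2.13 CPM in resting microglia. All 10 microglia markers were present in each group, but their sum was 1043 to 5337 CPM in activated microglia and 2731 to 4156 CPM in blood-derived phagocytes, against 23578 to 38239 CPM in resting microglia. Summed markers of monocyte-derived cells were 2366 to 6081 CPM in activated microglia and 2457 to 8052 CPM in blood-derived phagocytes, against 43.9 to 207 CPM in resting microglia. T cell markers reached 806, 140 and 6.64 CPM in the same order. The label of the activated gate is kept below as the name of the sort. The part of these other cell types in the differences between populations was not tested, apart from the correlations within the gate given below.

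In vehicle mice the receptor gene Csf1r averaged 3775 ± 284 CPM in blood-derived phagocytes, 1623 ± 574 CPM in activated microglia and 11303 ± 584 CPM in resting microglia (SD, n = 5 each), and Ccr2 averaged 215 ± 25.4, 90.2 ± 52.1 and 7.75 ± 7.90 CPM in the same order.

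Promoter sequences of 4 enzymes are shown because the core of the HIF-1 response element can be read in them, and because Ldha, Pgk1 and Pfkp were higher and Hk2 lower outside resting microglia. Each is the 250 bases before an annotated start, 5′ to 3′ on the gene's strand, from RefSeq (GRCm38.p6), and capitals mark ACGTG read on either strand. They lie at chr7:46845554-46845803 (+ strand, Ldha), chrX:106186850-106187099 (+, Pgk1), chr6:82774455-82774704 (-, Hk2) and chr13:6648772-6649021 (-, Pfkp).
Ldha: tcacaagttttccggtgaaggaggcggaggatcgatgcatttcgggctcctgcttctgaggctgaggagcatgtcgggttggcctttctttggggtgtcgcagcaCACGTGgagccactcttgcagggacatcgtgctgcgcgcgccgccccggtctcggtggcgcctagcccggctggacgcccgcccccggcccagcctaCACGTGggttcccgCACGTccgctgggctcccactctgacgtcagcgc
Pgk1: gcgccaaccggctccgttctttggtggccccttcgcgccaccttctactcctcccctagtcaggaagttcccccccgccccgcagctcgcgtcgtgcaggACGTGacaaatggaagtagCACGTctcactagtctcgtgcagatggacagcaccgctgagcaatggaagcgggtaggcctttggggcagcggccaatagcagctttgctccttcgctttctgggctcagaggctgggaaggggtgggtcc
Hk2: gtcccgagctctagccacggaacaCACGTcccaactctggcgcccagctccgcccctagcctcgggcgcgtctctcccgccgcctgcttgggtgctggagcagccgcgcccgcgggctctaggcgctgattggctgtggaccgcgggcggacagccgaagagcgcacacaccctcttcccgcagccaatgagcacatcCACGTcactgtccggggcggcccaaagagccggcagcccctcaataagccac
Pfkp: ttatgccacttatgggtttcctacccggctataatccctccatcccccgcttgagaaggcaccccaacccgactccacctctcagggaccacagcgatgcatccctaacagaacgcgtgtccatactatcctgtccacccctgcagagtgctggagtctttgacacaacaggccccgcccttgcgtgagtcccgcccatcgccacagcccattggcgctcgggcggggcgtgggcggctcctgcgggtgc
ACGTG was found in at least 1 such window of 6 of the 10 enzymes (Hk2, Hk3, Aldoa, Pgk1, Pkm and Ldha), against 18.5% of 27025 genes. The other form of the core, GCGTG, was found in 5 (Pfkp, Pfkl, Gapdh, Eno1 and Ldha), against 30.9% of genes. CACGTG, which holds ACGTG on both strands, was found in Ldha alone among the 10, against 6.86% of genes. A gene with several windows has more places for a match, and the 10 enzymes have 16 windows. Counted by window, ACGTG was in 7 of these 16, GCGTG in 7 and CACGTG in 1. Of 32851 windows over all genes, 16.6%, 28.2% and 6.02% held them in the same order. Windows of a gene can overlap, and the same ACGTG of Aldoa and the same GCGTG of Eno1 were counted again in an overlapping window. The Ldha window above has 5 matches to ACGTG, of which 4 come from its 2 copies of CACGTG, while the Pfkp window has 0 matches to ACGTG and 3 to GCGTG. Hk2, which was lower, had ACGTG, and so did enzymes that were higher. The 4 windows shown were picked with these directions known, and a relation between matches and direction was not tested. A match describes the letters of a window and is not a binding site.

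Together the 10 enzymes took a larger share of the counts in both CD45-high populations than in resting microglia. The share was 0.547% ± 0.0535 (SD, n = 6) with inhibitor and 0.573% ± 0.0741 (n = 5) with vehicle in blood-derived phagocytes. In activated microglia it was 0.587% ± 0.0357 and 0.600% ± 0.0646, and in resting microglia 0.244% ± 0.0303 and 0.269% ± 0.0445, in the same order. The lowest library of either CD45-high population, at 0.461%, lay above the highest resting library, at 0.343%. In sorted bulk RNA, a different mix of cells and a different amount of RNA per cell cannot be told apart.

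In vehicle mice, 8 of the 10 enzymes rose in blood-derived phagocytes against resting microglia, 1 fell and 1 did not pass (edgeR quasi-likelihood test, Benjamini-Hochberg adjusted p under 0.05). That comparison called 62.5% of all genes tested, 30.9% higher and 31.6% lower. Their median log2 fold change was 1.26, against -0.04 over all genes. Against resting microglia, 7 enzymes rose in activated microglia, 1 fell and 2 did not pass, where 28.9% of genes were called, 18.2% higher and 10.7% lower. The median was 1.22, against -0.10 over all genes. In blood-derived phagocytes against activated microglia, 1 enzyme was higher, 1 lower and 8 were not called, a share near that of all genes, of which 18.8% were called, 6.48% higher and 12.3% lower. That count ran from 1 to 4 between settings. Per-library levels of 8 enzymes did not overlap with those of resting microglia in either comparison, where 48.2% of all genes did not overlap for blood-derived phagocytes and 34.5% for activated microglia. The 3 comparisons share their groups and are not independent of each other.

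**Figure D1:**
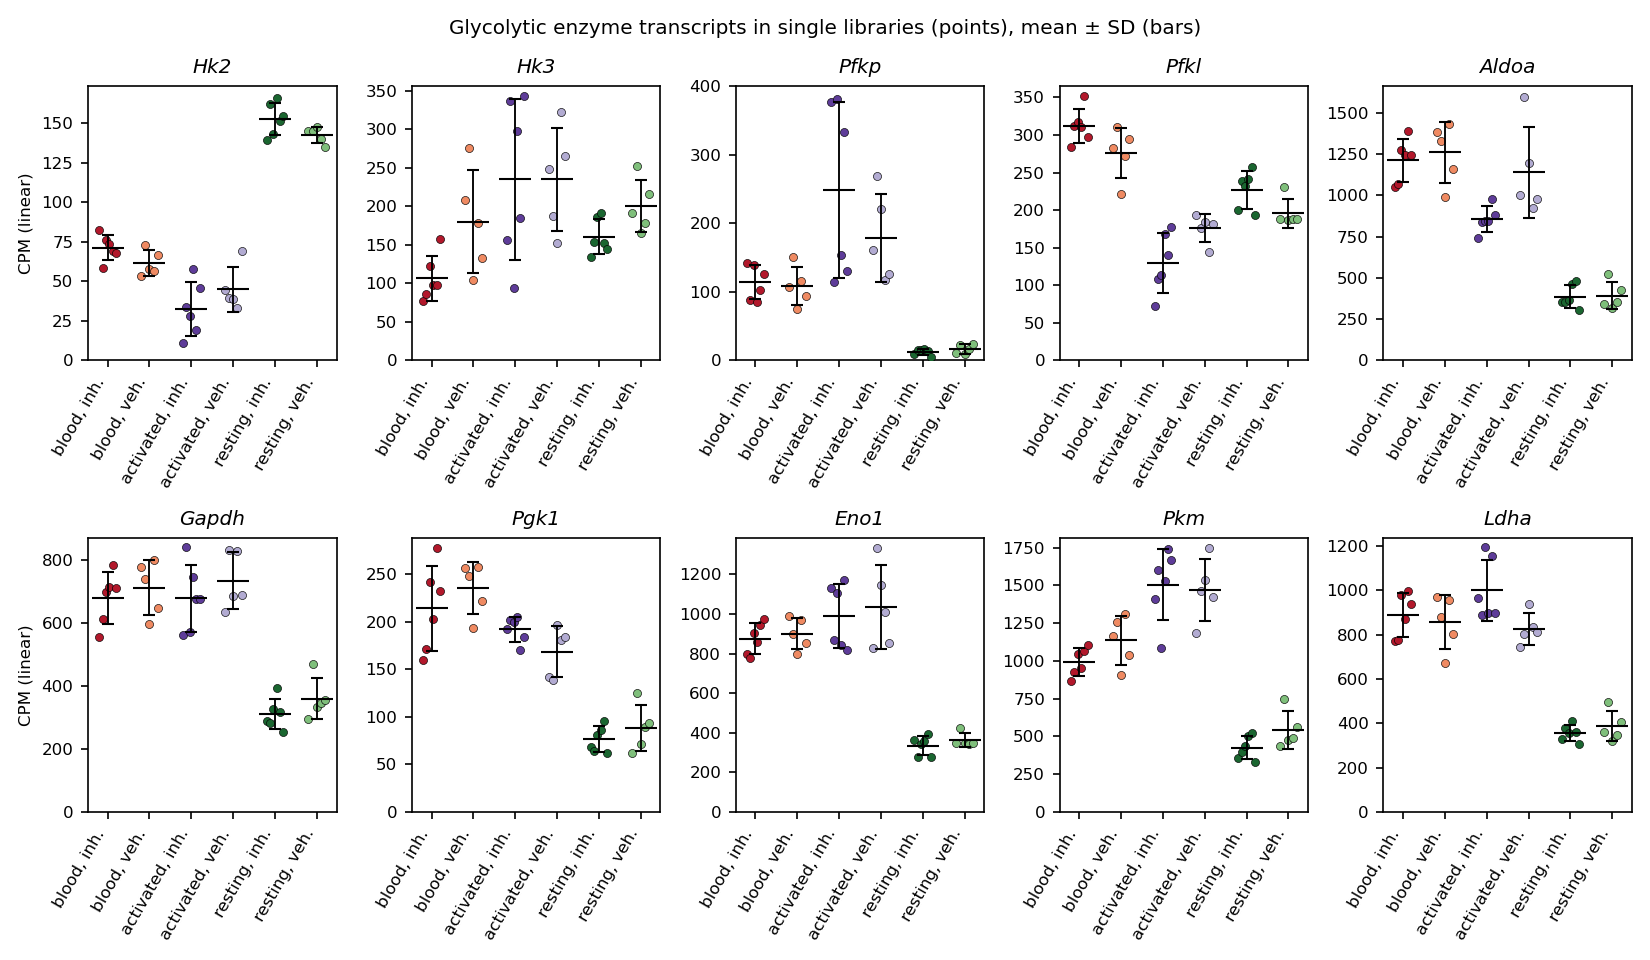
Level of each enzyme in every library, in CPM on linear axes that start at 0, with 1 point per library and bars for the mean ± SD of a group (n = 6 with inhibitor, n = 5 with vehicle). Aldoa, Gapdh, Pgk1, Eno1, Pkm and Ldha lie higher in both CD45-high populations than in resting microglia, Pfkp lies near the bottom of its axis in resting microglia, and Hk2 is highest there.

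Levels below are CPM, counts divided by the library's total, and fold changes are log2 estimates ± SE from edgeR after its scaling of libraries (TMM), so they need not equal the ratio of the CPM means. The 6 enzymes of the lower pathway, from aldolase to lactate dehydrogenase, rose together against resting microglia. Pkm (ENSMUSG00000032294, GRCm38 chromosome 9, 59656368 to 59679375, + strand) encodes pyruvate kinase, which makes pyruvate and ATP, and its M1 and M2 splice forms are not separated in a table per gene. In the 5 vehicle libraries it stood at 1163, 1254, 908, 1312 and 1041 CPM in blood-derived phagocytes, at 1182, 1463, 1536, 1746 and 1422 CPM in activated microglia, and at 435, 749, 479, 487 and 561 CPM in resting microglia. The highest resting library lay below the lowest library of the other populations. Pkm rose by 1.21 ± 0.16 in blood-derived phagocytes (edgeR adjusted p = 3.4e-05) and by 1.60 ± 0.21 in activated microglia (adjusted p = 2.3e-04).

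Eno1 (ENSMUSG00000063524, chromosome 4, 150236721 to 150248879, + strand) encodes enolase, which makes phosphoenolpyruvate. It stood at 988, 898, 798, 967 and 853 CPM in blood-derived phagocytes, at 826, 1334, 1148, 1008 and 852 CPM in activated microglia, and at 347, 425, 350, 345 and 350 CPM in resting microglia. Neither CD45-high population overlapped with resting microglia, and 4 of the 5 resting libraries lay within 345 to 350 CPM. The change was 1.46 ± 0.10 in blood-derived phagocytes (edgeR adjusted p = 1.4e-07) and 1.65 ± 0.15 in activated microglia (adjusted p = 1.7e-05). A near-identical copy, Eno1b, took 12.9% to 18.4% of the counts given to either gene, and adding its counts to those of Eno1 changed none of the calls on the enzymes.

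Ldha (ENSMUSG00000063229, chromosome 7, 46841475 to 46855627, + strand) encodes the lactate dehydrogenase subunit that favours lactate production. Its vehicle libraries stood at 970.5, 881, 671, 957 and 803 CPM in blood-derived phagocytes, at 742, 804, 937, 835 and 811 CPM in activated microglia, and at 362, 494, 321, 348 and 404 CPM in resting microglia. Again the resting libraries lay below all others. The increase was 1.30 ± 0.14 in blood-derived phagocytes (edgeR adjusted p = 6.0e-06) and 1.25 ± 0.17 in activated microglia (adjusted p = 2.3e-04).

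Aldoa (ENSMUSG00000030695, chromosome 7, 126795234 to 126800751, - strand) encodes aldolase, which cuts the doubly phosphorylated sugar into triose phosphates. It stood at 1386, 1329, 988, 1435 and 1162 CPM in blood-derived phagocytes, at 999, 1597, 1196, 925 and 978 CPM in activated microglia, and at 343, 522, 316, 352 and 429 CPM in resting microglia. The log2 fold change was 1.83 ± 0.16 in blood-derived phagocytes (edgeR adjusted p = 1.0e-06), the largest of these 6 enzymes there, and 1.66 ± 0.18 in activated microglia (adjusted p = 6.6e-05). Gapdh (ENSMUSG00000057666, chromosome 6, 125161715 to 125166467, - strand), the step that reduces NAD+, ran from 595 to 798 CPM in blood-derived phagocytes and from 635 to 832 CPM in activated microglia, against 295 to 469 CPM in resting microglia. It is often used as a reference gene for normalising expression, and here it rose by 1.13 ± 0.14 (edgeR adjusted p = 1.5e-05) and by 1.18 ± 0.18 (adjusted p = 5.3e-04). Pgk1 (ENSMUSG00000062070, chromosome X, 106187100 to 106203699, + strand) encodes phosphoglycerate kinase, the first step that returns ATP. It ran from 193 to 258 CPM in blood-derived phagocytes and from 139 to 197 CPM in activated microglia, against 61.6 to 125 CPM in resting microglia. It rose by 1.56 ± 0.18 (edgeR adjusted p = 1.5e-05) and by 1.09 ± 0.23 (adjusted p = 0.00434). Its copy Pgk1-rs7 was present in all 33 libraries at 0.03 to 3.17 log2 FPKM, and reads of the pair may have been split between them. Pseudogene copies of Gapdh and Ldha in the log2 FPKM table had a median of 0.

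The phosphofructokinase step held the largest change among the 10. Pfkp (ENSMUSG00000021196, chromosome 13, 6579768 to 6648777, - strand) encodes the platelet-type form of the enzyme. It stood at 107, 151, 75.7, 115 and 94.3 CPM in vehicle blood-derived phagocytes, at 162, 269, 220.4, 117 and 125 CPM in activated microglia, and at 10.7, 22.2, 8.72, 17.3 and 24.2 CPM in resting microglia. The gap between the lowest CD45-high library and the highest resting library was wider than the whole resting range. The log2 fold change was 2.84 ± 0.31 in blood-derived phagocytes (edgeR adjusted p = 1.5e-05) and 3.53 ± 0.34 in activated microglia (adjusted p = 2.6e-05), which is 7.18-fold and 11.5-fold higher.

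Pfkl (ENSMUSG00000020277, chromosome 10, 77986947 to 78010083, - strand), the liver-type form, behaved otherwise. It stood at 283, 310.3, 222, 272 and 295 CPM in blood-derived phagocytes, at 194, 177, 184, 144 and 182 CPM in activated microglia, and at 188, 230.2, 187, 188 and 188 CPM in resting microglia. Blood-derived phagocytes were highest and overlapped with resting microglia in a single pair of libraries, while the activated and resting libraries overlapped. Pfkl rose by 0.65 ± 0.11 in blood-derived phagocytes against resting microglia (edgeR adjusted p = 1.8e-04) and by 0.62 ± 0.12 against activated microglia (adjusted p = 0.003). Between activated and resting microglia the log2 difference was -0.01 ± 0.13 (95% interval -0.29 to 0.27; edgeR adjusted p = 0.979).

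The hexokinases moved apart from the rest of the pathway. Hk2 (ENSMUSG00000000628, chromosome 6, 82725025 to 82774454, - strand) encodes a hexokinase that can bind to mitochondria, and it was the one enzyme that fell in both comparisons. It stood at 53.7, 73.0, 57.95, 56.4 and 67.0 CPM in blood-derived phagocytes, at 44.5, 39.3, 39.0, 33.2 and 69.2 CPM in activated microglia, and at 145, 145, 147, 140.04 and 135 CPM in resting microglia. The resting libraries had a coefficient of variation of 3.45% and lay above every other vehicle library. Hk2 fell by 1.05 ± 0.09 on the log2 scale in blood-derived phagocytes (edgeR adjusted p = 1.2e-06) and by 1.51 ± 0.20 in activated microglia (adjusted p = 2.2e-04).

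Hk3 (ENSMUSG00000025877, chromosome 13, 55005985 to 55021385, - strand) encodes a hexokinase found mostly in blood and immune cells. It stood at 208, 276, 104, 179 and 133 CPM in blood-derived phagocytes, at 249, 187, 152, 322 and 265 CPM in activated microglia, and at 191, 252, 166, 178 and 215 CPM in resting microglia. All 3 populations overlapped. Its log2 difference from resting microglia was -0.01 ± 0.23 in blood-derived phagocytes (95% interval -0.52 to 0.51; edgeR adjusted p = 0.974) and 0.42 ± 0.26 in activated microglia (95% interval -0.16 to 0.99; adjusted p = 0.271). These intervals are wide enough to hold changes in either direction.

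**Figure D2:**
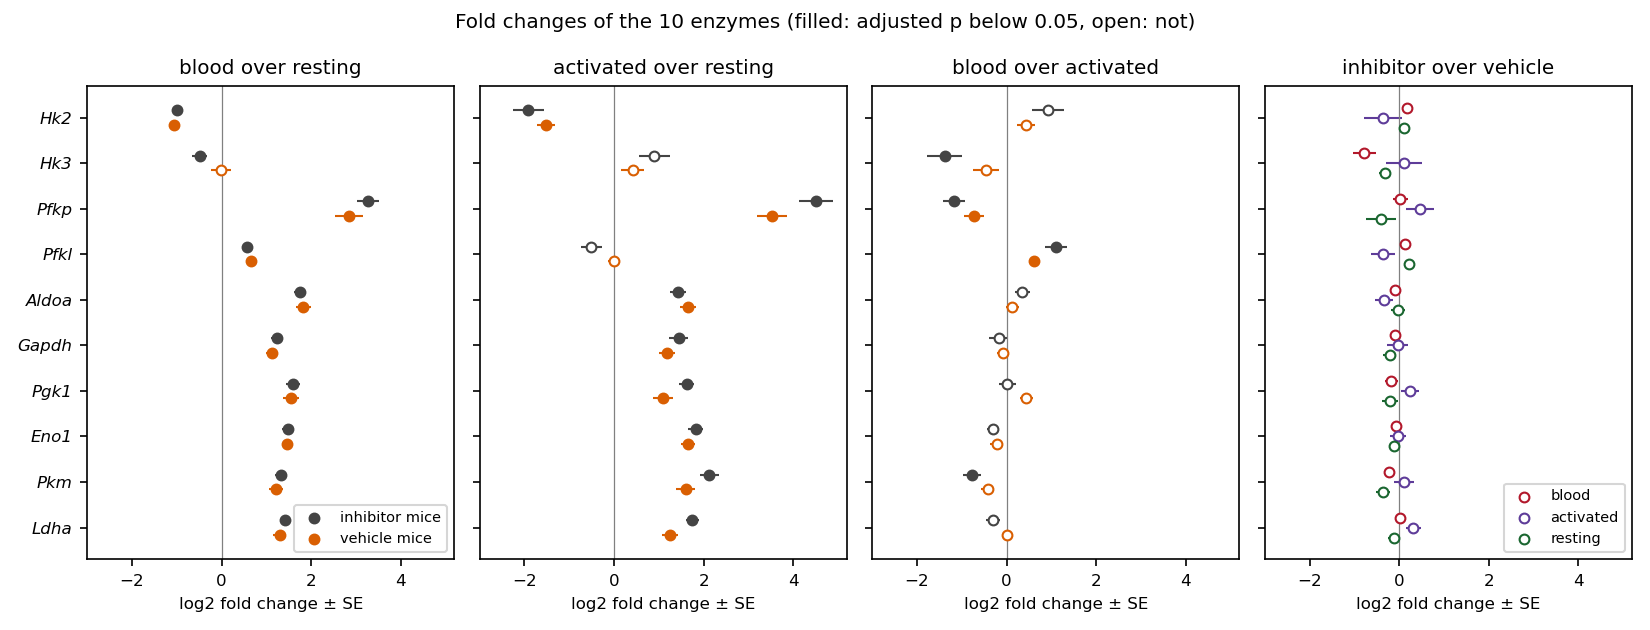
Log2 fold change ± SE (horizontal axes) of the 10 enzymes for the 3 population comparisons, in inhibitor mice (grey) and vehicle mice (orange), and for inhibitor over vehicle within each population (last panel). Filled points passed an adjusted p of 0.05 and open points did not; Pfkp lies farthest to the right in the first 2 panels, Hk2 lies left of 0 in both, and every point of the last panel is open.

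Per length, the family makeup of 3 steps differed between the populations. Shares of summed FPKM (fragments scaled to gene length and library size, taken back from the deposited log2 values) are comparable between genes, unlike CPM, and were described without a test. Of the phosphofructokinase transcripts, Pfkp made up 27.1% ± 5.57 with inhibitor and 28.4% ± 3.38 with vehicle in blood-derived phagocytes (SD, n = 6 and n = 5). In activated microglia the share was 60.8% ± 16.2 and 47.8% ± 8.07, and in resting microglia 4.94% ± 1.54 and 7.39% ± 3.08. The muscle-type gene Pfkm averaged at most 3.59% in any group, so nearly all of the remainder was Pfkl.

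Lactate dehydrogenase is built from Ldha and Ldhb subunits, and Ldhb favours the use of lactate. Ldhb made up 8.39% ± 1.54 with inhibitor and 12.2% ± 3.13 with vehicle in blood-derived phagocytes, 3.27% ± 2.98 and 8.04% ± 4.48 in activated microglia, and 57.97% ± 4.06 and 56.9% ± 5.89 in resting microglia. The lowest resting library, at 47.4%, lay far above the highest library of the other populations, at 16.5%. On counts, the log2 ratio of Ldha to Ldhb (CPM with 1 added) averaged 3.16 ± 0.41 in blood-derived phagocytes and 3.92 ± 0.75 in activated microglia of vehicle mice, against -0.11 ± 0.34 in resting microglia. Activated inhibitor replicate 1 had no Ldhb count, which allows up to 0.168 CPM (3 counts), and its ratio rests on the added 1.

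Ranked by mean FPKM in vehicle mice, Aldoa, Gapdh, Ldha, Pkm and Eno1 were the top 5 in all 3 populations. Aldoa led in blood-derived phagocytes (838 ± 102 FPKM) and in activated microglia (700.1 ± 129 FPKM), and Gapdh in resting microglia (237 ± 49.1 FPKM), where Aldoa followed within its spread (224 ± 54.4 FPKM). The lowest was Hk2 in blood-derived phagocytes (11.2 ± 1.41 FPKM) and in activated microglia (7.81 ± 1.99 FPKM), and Pfkp in resting microglia (4.35 ± 1.97 FPKM).

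Among the hexokinases, Hk3 supplied the most transcripts per length on average in every group, from 49.1% ± 7.08 in blood-derived phagocytes with inhibitor to 68.5% ± 7.59 in activated microglia with vehicle. Hk2 made up 18.5% ± 2.72 and 12.6% ± 3.26 in blood-derived phagocytes with inhibitor and vehicle, 6.67% ± 3.56 and 7.40% ± 1.91 in activated microglia, and 30.8% ± 2.39 and 24.7% ± 2.38 in resting microglia. Hk1, the hexokinase of most tissues and not among the 10, took 32.4% ± 4.68 and 25.0% ± 3.84 in blood-derived phagocytes, 28.8% ± 15.5 and 24.1% ± 6.65 in activated microglia, and 10.6% ± 2.28 and 11.2% ± 1.41 in resting microglia. Hk1 and Hk2 thus stood in opposite order in the CD45-high populations and in resting microglia.

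**Figure D3:**
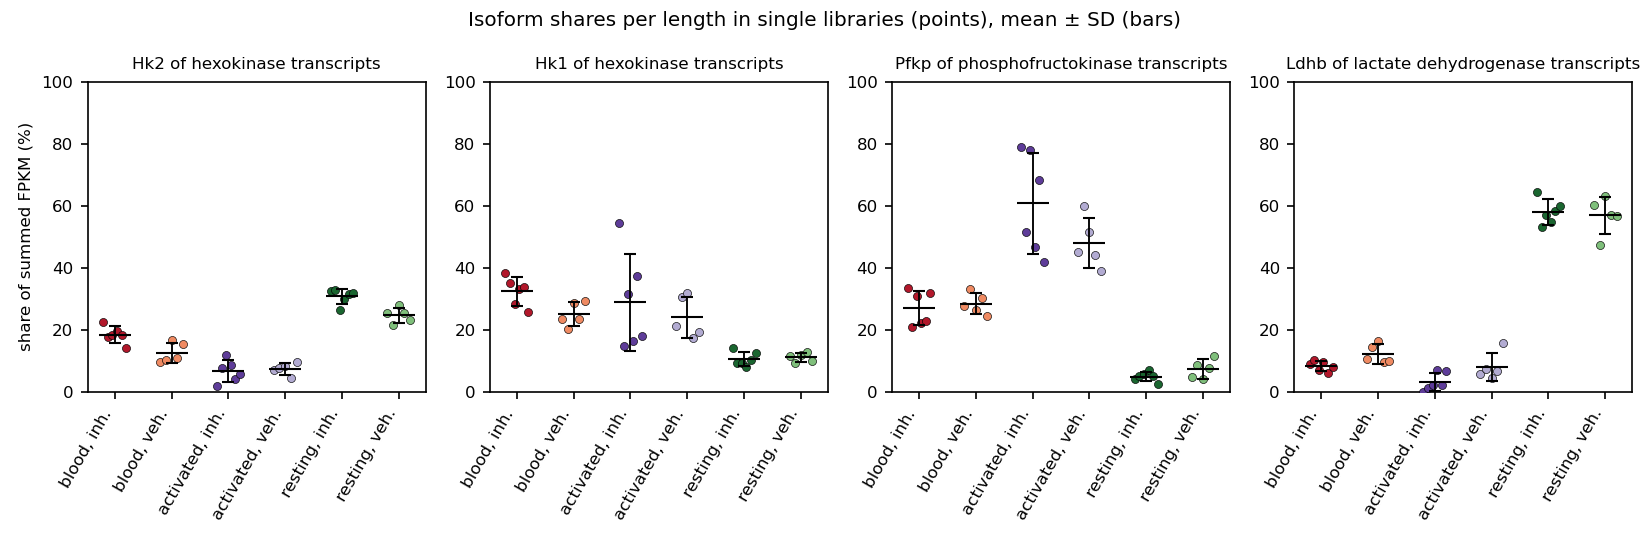
Share of Hk2 and Hk1 in summed hexokinase FPKM (Hk1, Hk2 and Hk3), of Pfkp in phosphofructokinase FPKM and of Ldhb in lactate dehydrogenase FPKM, in percent, with 1 point per library and bars for mean ± SD (n = 6 with inhibitor, n = 5 with vehicle). Resting microglia hold the highest Hk2 and Ldhb shares and the lowest Pfkp and Hk1 shares.

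The populations were also compared in mice given the inhibitor, in libraries that the vehicle comparisons did not use. Against resting microglia, all 10 enzymes passed in blood-derived phagocytes, 8 higher and 2 lower, where 63.5% of genes were called, 31.2% higher and 32.2% lower (edgeR adjusted p under 0.05). The median was 1.37, against -0.05 over all genes. In activated microglia 7 rose, 1 fell and 2 did not pass, where 33.3% of genes were called, 22.1% higher and 11.2% lower, with a median of 1.53 against -0.01 over all genes. Levels of 9 of the 10 enzymes did not overlap in either comparison, against 41.2% of all genes for blood-derived phagocytes and 32.7% for activated microglia. Pfkp had a lowest, median and highest level of 85.9, 115 and 142 CPM in blood-derived phagocytes, of 115, 244 and 381 CPM in activated microglia, and of 5.15, 14.4 and 17.2 CPM in resting microglia. The activated libraries were spread widely, and all of them lay above the resting range. The log2 fold change over resting microglia was 3.27 ± 0.25 in blood-derived phagocytes (edgeR adjusted p = 9.2e-08) and 4.51 ± 0.38 in activated microglia (adjusted p = 1.3e-06).

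Hk2 had 58.7, 71.4 and 82.4 CPM as lowest, median and highest in blood-derived phagocytes with inhibitor, 11.3, 30.9 and 57.9 CPM in activated microglia, and 139.7, 153 and 166 CPM in resting microglia. The 3 ranges did not overlap. It fell by 1.00 ± 0.08 in blood-derived phagocytes (edgeR adjusted p = 3.3e-08) and by 1.91 ± 0.35 in activated microglia (adjusted p = 8.9e-04) on the log2 scale, against resting microglia. Hk3 had 76.8, 97.8 and 158 CPM in blood-derived phagocytes, 94.2, 241 and 343 CPM in activated microglia, and 135, 153 and 192 CPM in resting microglia, and all ranges overlapped. It fell by 0.49 ± 0.16 in blood-derived phagocytes against resting microglia (edgeR adjusted p = 0.0171). This call was lost without blood-derived inhibitor replicate 2 (adjusted p = 0.0522) or resting inhibitor replicate 4 (adjusted p = 0.053), and in a fit of all 33 libraries (adjusted p = 0.206). In activated microglia Hk3 differed from resting microglia by 0.90 ± 0.34 (edgeR adjusted p = 0.0585), and it passed without activated inhibitor replicate 1 (adjusted p = 0.0301) or 3 (adjusted p = 0.0165).

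Aldoa, Gapdh, Pgk1, Eno1, Pkm and Ldha rose in both CD45-high populations, as they did in vehicle mice. Ldha had 772, 903 and 997 CPM in blood-derived phagocytes and 890.5, 932 and 1193 CPM in activated microglia, against 307, 358 and 412 CPM in resting microglia. It rose by 1.42 ± 0.11 in blood-derived phagocytes (edgeR adjusted p = 1.7e-08) and by 1.75 ± 0.14 in activated microglia (adjusted p = 9.8e-07). Pfkl rose by 0.56 ± 0.09 in blood-derived phagocytes (edgeR adjusted p = 7.7e-05) but did not pass in activated microglia, where 71.9, 127 and 177 CPM stood below 194, 235 and 257 CPM in resting microglia with no overlap. The log2 difference was -0.51 ± 0.23 (edgeR adjusted p = 0.1), and it passed with RLE size factors (-0.69, adjusted p = 0.0386), which move the median of all genes by -0.18, with DESeq2 (adjusted p = 0.0186) and in the fit of all 33 libraries (edgeR adjusted p = 0.00336). Leaving out activated inhibitor replicate 6 also brought it past the threshold (-0.75, adjusted p = 0.0368).

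Directly between the CD45-high populations, the 2 enzymes called by edgeR in vehicle mice belonged to the same step. Pfkl rose in blood-derived phagocytes, as given above, and was called in all 10 refits that left out 1 library. The levels of 1 enzyme, Pfkl, did not overlap, against 22.2% of all genes. Pfkp fell by 0.73 ± 0.23 (edgeR adjusted p = 0.044), which was lost in 6 of the 10 refits without 1 library: without activated vehicle replicate 1 (adjusted p = 0.0616) or 3 (0.0976), and without blood-derived vehicle replicate 1 (0.107), 3 (0.0982), 4 (0.0973) or 5 (0.118). In inhibitor mice 4 of the 10 enzymes passed, where 20.2% of genes were called. The levels of 3 enzymes (Hk2, Pfkl and Aldoa) did not overlap, against 20.1% of all genes. Pfkl rose by 1.10 ± 0.24 (edgeR adjusted p = 0.00481) while Pfkp fell by 1.18 ± 0.25 (adjusted p = 0.00428). Pkm had 866, 1000.4 and 1103 CPM as lowest, median and highest in blood-derived phagocytes against 1084, 1566 and 1740 CPM in activated microglia, which overlapped at the ends. It fell by 0.77 ± 0.21 (edgeR adjusted p = 0.0168). Hk3 fell by 1.38 ± 0.39 (edgeR adjusted p = 0.0211). That call was lost without blood-derived inhibitor replicate 1 (adjusted p = 0.0512) or 2 (adjusted p = 0.0513). The other 6 enzymes, Hk2, Aldoa, Gapdh, Pgk1, Eno1 and Ldha, passed in neither set of mice. Of these, Hk2 passed without activated vehicle replicate 5 (edgeR adjusted p = 0.0192) or, in inhibitor mice, without activated inhibitor replicate 6 (adjusted p = 0.0473). In inhibitor mice Hk2 also passed with DESeq2 (adjusted p = 0.0398) and in the fit of all 33 libraries (edgeR adjusted p = 0.00323). Pgk1 passed without activated vehicle replicate 4 (edgeR adjusted p = 0.0388). In vehicle mice Pgk1 also passed with DESeq2 (adjusted p = 0.0311) and with limma on log2 FPKM (adjusted p = 0.0121). Pkm, called by edgeR in inhibitor mice alone, passed with DESeq2 in vehicle mice too (-0.42, adjusted p = 0.0365). For Ldha the vehicle difference was 0.02 ± 0.13 (95% interval -0.27 to 0.30), and for Gapdh -0.08 ± 0.14 (95% interval -0.38 to 0.22).

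The inhibitor itself changed none of the 10 enzymes past the threshold in any population. In blood-derived phagocytes 0.274% of genes were called, 0.223% higher and 0.0514% lower, and 0% in activated microglia (417 genes at an unadjusted p under 0.05, 4 called by DESeq2, 0 by limma) and 0% in resting microglia (671 genes, 13 by DESeq2, 0 by limma). Of the enzymes, 2, 0 and 3 had an unadjusted p under 0.05 in blood-derived phagocytes, activated microglia and resting microglia, and DESeq2 and limma called 0 in each. They were Hk3 and Pkm in blood-derived phagocytes, and Hk3, Pkm and Pfkl in resting microglia. For Pkm the log2 difference was -0.23 ± 0.10 in blood-derived phagocytes and -0.36 ± 0.16 in resting microglia. No enzyme had levels that did not overlap between inhibitor and vehicle, against 2.08%, 0.617% and 0.589% of all genes in the same order. Hk3 had the lowest adjusted p, in blood-derived phagocytes, with a log2 difference of -0.78 ± 0.26 (95% interval -1.35 to -0.22; edgeR adjusted p = 0.193). It averaged 106 ± 29.4 CPM with inhibitor and 180.04 ± 67.0 CPM with vehicle there (SD, n = 6 and n = 5), and the libraries overlapped. In resting microglia it averaged 161 ± 23.0 CPM with inhibitor and 200.4 ± 34.1 CPM with vehicle (edgeR adjusted p = 0.876), and in activated microglia 235.4 ± 105 and 235.2 ± 66.9 CPM (adjusted p = 0.999).

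How closely the data bound an inhibitor effect depended on the population. In blood-derived phagocytes, the 95% interval for Ldha ran from -0.22 to 0.26, for Eno1 from -0.27 to 0.12 and for Pfkl from -0.06 to 0.34 on the log2 scale. In activated microglia the same intervals ran from -0.04 to 0.68, from -0.41 to 0.38 and from -0.91 to 0.19, and for Pfkp from -0.20 to 1.14. Resting microglia gave -0.38 to 0.16 for Ldha, -0.36 to 0.14 for Eno1 and -1.14 to 0.31 for Pfkp. For Pfkl they gave 0.00 to 0.43, for Pkm -0.70 to -0.01 and for Hk3 -0.60 to -0.04. These intervals are not adjusted for the number of genes. Inhibitor effects did not differ between populations past the threshold for any enzyme (0% of genes called in each of the 3 interaction tests by edgeR; 774, 891 and 682 genes had an unadjusted p under 0.05). Of the enzymes, 1, 0 and 0 had an unadjusted p under 0.05 for activated minus resting, blood-derived minus resting and blood-derived minus activated, and DESeq2 and limma called 0 of them. For Pfkl the inhibitor effect in activated minus resting microglia was -0.60 ± 0.27 (edgeR adjusted p = 0.799).

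Within the activated gate, some of the enzymes moved with the neutrophil markers. Across its 11 libraries, the level of Hk3 correlated with the summed neutrophil markers at Pearson r = 0.84 (permutation p = 0.0007, adjusted over 20 relations 0.014) and Spearman rho = 0.85 (permutation p = 0.00182, adjusted 0.0296). Without the 2 libraries farthest from the median of the markers r was 0.80, and within the 6 inhibitor libraries 0.92. Without the 3 libraries with fewer than 11000 detected genes it was 0.86, with an adjusted permutation p of 0.0578. Pfkp ran the other way, with r = -0.73 (permutation p = 0.0106, adjusted 0.106) and rho = -0.83 (permutation p = 0.00296, adjusted 0.0296), r = -0.60 without the 2 farthest libraries and -0.87 within inhibitor. The 5 vehicle libraries are too few for a value of their own. For the other enzymes no r or rho with the markers passed after adjustment, and none of the 10 passed with the number of detected genes. Leaving out those 3 thin libraries changed no call on an enzyme in the comparisons they enter. NK cell markers, not among these relations, also varied within the gate. In inhibitor replicates 1, 3 and 5 they summed to 9843, 12491 and 8527 CPM, beside Pfkp at 377, 381 and 334 CPM. Replicates 2, 4 and 6 had 438, 2313 and 293 CPM, beside Pfkp at 115, 154 and 130 CPM. With vehicle, replicates 2 and 3 held the most of both (1578 and 2787 CPM, and Pfkp at 269 and 220 CPM). A relation of Pfkp with the NK markers was not tested.

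**Figure D4:**
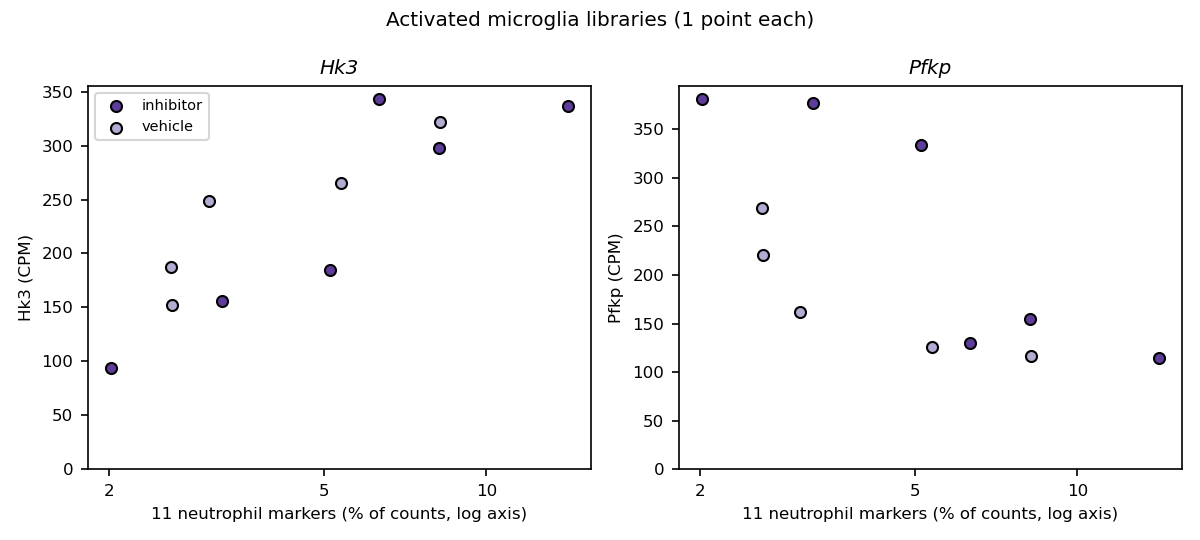
Level of Hk3 (left) and Pfkp (right) in CPM against the share of counts taken by 11 neutrophil markers (percent, log axis) in the activated microglia libraries, 6 with inhibitor (dark) and 5 with vehicle (light). Hk3 is higher and Pfkp lower where the markers take more of the counts.

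The rest of the pathway was read from a list of 35 other genes of glucose uptake, glycolysis and pyruvate use, of which 26 could be tested in each vehicle comparison. Against resting microglia, 13 rose in blood-derived phagocytes, 6 fell and 7 did not pass (median 0.49, against -0.04 over all genes), where 62.5% of all genes were called, 30.9% higher and 31.6% lower. In activated microglia 8 rose, 2 fell and 16 did not pass (median 0.36, against -0.10), where 28.9% of all genes were called, 18.2% higher and 10.7% lower. The enzymes of the steps between the 10 rose with them. Gpi1, which turns glucose phosphate into fructose phosphate, rose by 1.85 ± 0.16 in blood-derived phagocytes and 2.39 ± 0.26 in activated microglia. Tpi1, which interconverts the triose phosphates, rose by 1.75 ± 0.17 and 0.90 ± 0.20, and the phosphoglycerate mutase gene Pgam1 by 1.67 ± 0.12 and 1.20 ± 0.14. Hk1 also rose, by 1.08 ± 0.10 and 1.38 ± 0.12, in contrast to Hk2. Ldhb fell by 1.95 ± 0.14 and 2.62 ± 0.35 on the log2 scale (edgeR adjusted p at most 0.00666 for these 5 genes in both comparisons).

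Of the transporters at the ends of the pathway, Slc2a3 and Slc16a3 differed between the CD45-high populations. Slc2a3, the glucose transporter with high affinity, had 2.28, 5.08, 2.32, 2.47 and 5.61 CPM in vehicle blood-derived phagocytes, 187, 130.4, 125, 272 and 188 CPM in activated microglia, and 5.11, 8.01, 6.93, 6.20 and 13.5 CPM in resting microglia. It was high in every activated library and low in all others, and it fell by 5.73 ± 0.42 in blood-derived phagocytes against activated microglia (edgeR adjusted p = 8.9e-06). Slc16a3, a lactate exporter, averaged 87.2 ± 12.2 CPM in blood-derived phagocytes, 459 ± 238 CPM in activated microglia and 50.3 ± 17.7 CPM in resting microglia (SD, n = 5 each). It rose by 0.94 ± 0.22 in blood-derived phagocytes (edgeR adjusted p = 0.00273) and by 3.41 ± 0.45 in activated microglia (adjusted p = 2.1e-04) against resting microglia, and fell by 2.48 ± 0.37 in blood-derived phagocytes against activated microglia (edgeR adjusted p = 7.7e-04). The neutrophil markers given above are high in the same activated libraries, and their part in these levels was not tested. Slc2a1, the widely expressed glucose transporter, rose by 0.48 ± 0.17 in blood-derived phagocytes (edgeR adjusted p = 0.0296) and differed by 0.66 ± 0.39 in activated microglia (adjusted p = 0.245), both against resting microglia. Between blood-derived phagocytes and activated microglia its difference was -0.20 ± 0.37 (edgeR adjusted p = 0.767).

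Regulators of the pathway went in several directions. Pfkfb3, which makes the sugar phosphate that activates phosphofructokinase, fell by 1.20 ± 0.17 in blood-derived phagocytes (edgeR adjusted p = 5.5e-05). Pfkfb4, of the same family, rose by 1.02 ± 0.22 in activated microglia (adjusted p = 0.0048) and fell by 0.44 ± 0.16 in blood-derived phagocytes (edgeR adjusted p = 0.026), both against resting microglia. Pdk1, a kinase that shuts pyruvate out of the mitochondrial pathway, fell by 0.61 ± 0.11 in blood-derived phagocytes (adjusted p = 4.4e-04) and by 1.19 ± 0.20 in activated microglia (edgeR adjusted p = 9.3e-04). Mpc2, a subunit of the mitochondrial pyruvate carrier, rose by 0.61 ± 0.09 and by 1.21 ± 0.17 in the same comparisons. Other listed genes called in blood-derived phagocytes were Aldoc, Pdk3, Pdha1, Mpc1 and Hif1a, all higher, and Slc16a1, lower. Hif1a, which encodes the oxygen-regulated subunit of HIF-1, rose by 0.51 ± 0.15 (edgeR adjusted p = 0.00998). Its protein is controlled mainly after translation and was not measured here.

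**Figure D5:**
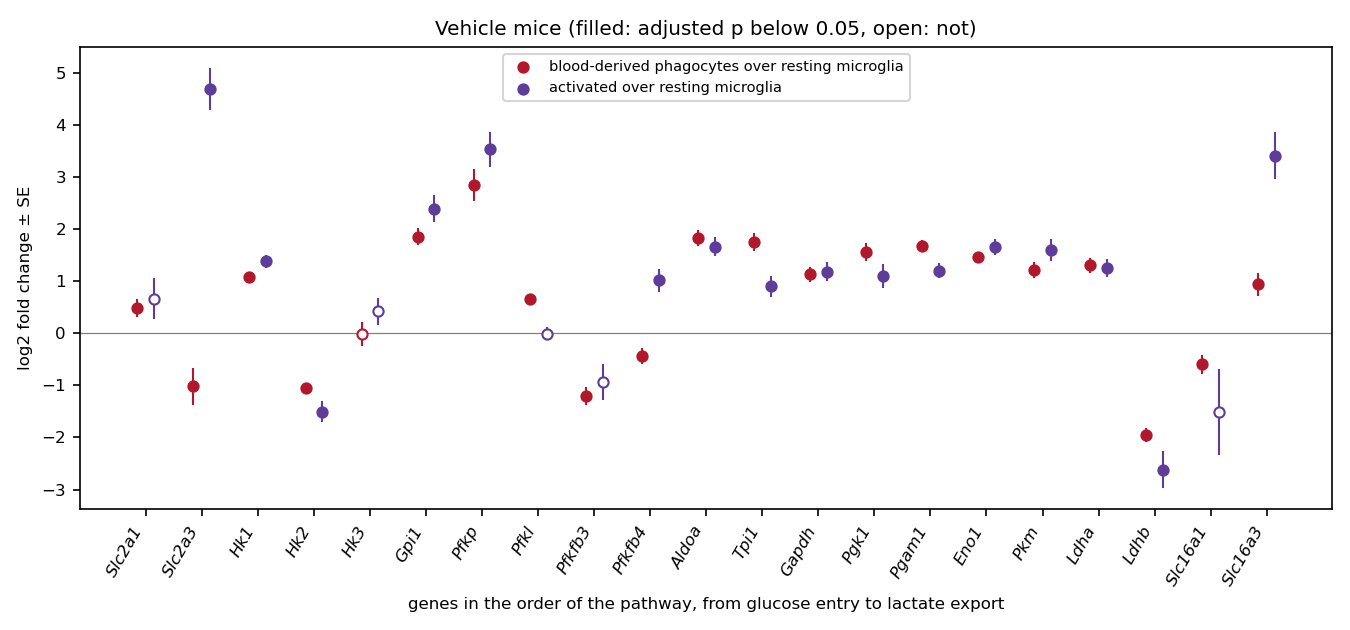
Log2 fold change ± SE over resting microglia in vehicle mice (vertical axis) for 21 genes set in pathway order from glucose entry to lactate export, for blood-derived phagocytes (red) and activated microglia (purple), filled where the adjusted p was below 0.05. From Aldoa to Ldha all points are filled and above 0, while hexokinases, transporters and regulators lie on both sides.

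Further targets of HIF-1 outside glycolysis rose more often than they fell. Of 9 such genes, 7 rose and 2 fell in blood-derived phagocytes (median 1.37), and 4 rose, 2 fell and 3 did not pass in activated microglia (median 1.51), against resting microglia in vehicle mice. Over all genes these comparisons called 62.5% and 28.9%, with medians of -0.04 and -0.10. Vegfa, an angiogenic growth factor, rose by 5.02 ± 0.50 (edgeR adjusted p = 8.4e-06) and by 4.24 ± 0.47 (adjusted p = 6.5e-05). P4ha1, a collagen prolyl hydroxylase subunit, fell by 0.48 ± 0.09 (edgeR adjusted p = 3.2e-04) and by 1.58 ± 0.25 (adjusted p = 6.5e-04). The other gene that fell, Adm, had no count in the 5 activated vehicle libraries together, which allows up to 0.0322 CPM (3 counts), against 0.711 to 2.16 CPM in resting microglia. Its place at the low end leaves the median of the list as it is. The pentose phosphate pathway branches from glycolysis after hexokinase and supplies NADPH. Of its 7 listed genes, 6 rose and 1 fell in blood-derived phagocytes (median 0.82), and 5 rose and 2 did not pass in activated microglia (median 1.24), beside the same 62.5% and 28.9% called and medians of -0.04 and -0.10 over all genes. G6pdx, its entry enzyme, rose by 1.10 ± 0.14 (edgeR adjusted p = 2.7e-05) and by 2.18 ± 0.35 (adjusted p = 8.3e-04).

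Across the 33 libraries, 7 of the 10 enzymes followed a common profile, described here without a test because the libraries share populations and scaling. The correlation of an enzyme's level with the mean of all 10, itself included, was 0.98 for Gapdh, 0.96 for Aldoa, 0.95 for Pgk1, 0.93 for Ldha, 0.92 for Pkm, 0.91 for Eno1 and 0.87 for Pfkp. It was 0.15 for Pfkl, 0.14 for Hk3 and -0.66 for Hk2. Among 8752 other genes averaging at least 10 CPM, those with the most similar profile to that mean were Lgals3 (r = 0.959), Adssl1 (0.949), Cyp4f18, Chil3 and AA467197 (0.948 each).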

How the data were processed

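RNA of 33 sorted cell libraries was amplified by PCR from low cell inputs, per the labels' protocols, so counts are not independent molecules, and intervals of counts cover counting error only. The submitters' processing notes name bcl2fastq and the build GRCm38; the aligner and counter are not given in the sources used here. Expected counts for 21950 protein-coding genes form one table that the authors deposited; 16.3% of its values were not whole, and all were rounded. The second deposited table holds log2 values of FPKM with 1 added for 27745 genes, with a 75th percentile of 2.936 in every library. Columns were matched to samples by library name. Symbols and positions came from GENCODE M21.

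The rounded counts went into edgeR 4.0.16 (R 4.3.3): filterByExpr, TMM scaling and the robust quasi-likelihood F test, fitted on all genes of only the groups compared, with p-values adjusted across every tested gene (Benjamini-Hochberg) and calls under 0.05. SE is the absolute log2 fold change over the root of F, and 95% intervals use the test's degrees of freedom. All 10 enzymes passed the filter in every comparison. Alternatives were DESeq2 1.42.0, RLE size factors, a fit over all 33 libraries, a filter of only 1 count, limma 3.58.1 (limma-trend) on log2 FPKM, a block for the replicate number, a term for sex, leaving out 3 thin libraries and each library in turn. Summing Eno1b with Eno1, and leaving out libraries from the isoform ratios, were added after seeing the data. Correlations used 100000 permutations, two-sided, on log2 of CPM with 1 added. Python 3.11.15 with scipy 1.17.1 was used for these. The fitting code was tested on simulated data. The enzymes, lists and tests were chosen with earlier results of these data known. All 10 enzymes are named. Other glycolysis genes are named where called in a population or inhibitor comparison with a mean of at least 10 CPM. Of the HIF-1 targets and the pentose phosphate genes only some are named, and unnamed ones were called as well.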

Additional observations from a re-analysis of the deposited data

Results flagged for a closer look

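In 60 groups of values (10 enzymes in 6 groups), a library far from the others of its group was looked for, and chance alone marks about 1 group in 20. Both values found came from resting microglia, vehicle replicate 2. Pfkl stood at 230.2 CPM there, against 187 to 188 CPM in the other 4 libraries, and Eno1 at 425 CPM, against 345 to 350 CPM. Leaving this library out changed no call on either enzyme.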

How the results depend on the processing

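The population differences from resting microglia kept their calls on most enzymes. Over the population, inhibitor and interaction comparisons together, 16 of 1650 values of single enzymes changed their call when refitted without 1 library. All 16 were in population comparisons, most of them in blood-derived phagocytes against activated microglia. No enzyme was called in the inhibitor or interaction comparisons to begin with. No value called as reported changed direction, while some uncalled values near 0 changed sign. Sex as a covariate and the summed Eno1 counts changed 0 of 120 calls on enzymes, and DESeq2 added 4. Sex was inferred from the levels of Y-linked genes and Xist in these same libraries, and every group held both sexes. Counting error was small beside the spread between replicates, whose counts differed by a chi-square per gene of at least 18.8. Correlations between deviations of samples with the same replicate number ran from -0.27 to 0.59. At most 3 of 5 pairs were over 0.1, in inhibitor against vehicle in resting microglia, and at most 3 of 5 samples correlated best with their own number, in activated against resting microglia with vehicle. As in no comparison every pair was over 0.1, the numbers were not taken as pairs.

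For blood-derived phagocytes against activated microglia in vehicle mice, 2 enzymes were called in the reported fit, 4 by DESeq2, and 1 without the filter, 1 in the fit of all 33 libraries and 1 with the replicate block, while leave-one-out gave 1 to 3. In inhibitor mice the replicate block left 2 called in place of 4, with Pkm (-0.72, edgeR adjusted p = 0.0512) and Hk3 (-1.19, adjusted p = 0.0688) not called. Genes called in that comparison were 1401 with the replicate block and 3619 without the thin libraries in vehicle mice (2176 reported; 1650 to 3619 when leaving out 1 library, the highest without activated vehicle replicate 2), and in inhibitor mice 3969 in the fit of all libraries and 3781 without the thin libraries (2348 reported; 1876 to 3144). The fit of all 33 libraries also called 3493 genes for blood-derived phagocytes against resting microglia in vehicle mice (7542 reported), 3967 in inhibitor mice (7628 reported), and 6121 for activated against resting microglia in inhibitor mice (4007 reported). For activated against resting microglia in vehicle mice, leaving out 1 library gave 2898 to 5103 genes (3499 reported).

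For the inhibitor in blood-derived phagocytes, 32 genes were reported, 354 by DESeq2, 132 by limma, 61 with the replicate block, 0 in the fit of all libraries and 0 to 181 without 1 library, outside 1.5 times the reported count in 9 of 11 refits. In activated microglia DESeq2 called 4 and the fit of all libraries 322, and in resting microglia DESeq2 called 13 and leave-one-out gave 0 to 7, the highest without resting inhibitor replicate 4. For differences of inhibitor effects, all 0 as reported, DESeq2 called 51 genes for activated minus resting (1 in the fit of all libraries; 0 to 1 leaving out 1 library), 13 for blood-derived minus resting (0 to 1), and 32 for blood-derived minus activated (4 in the fit of all libraries, 1 with the replicate block; 0 to 5, the highest without activated inhibitor replicate 6). The cause was not tested.

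Within the activated gate, log2 FPKM values gave r with the neutrophil markers of 0.78 for Gapdh, 0.80 for Pgk1 and 0.86 for Pkm, which then passed. Without the thin libraries, Gapdh passed with the markers (0.83), and Hk3 (0.83) and Eno1 (-0.84) with detected genes, while Hk3 with the markers no longer did (0.86). Other scalings moved the median of all genes by -0.19 to 0.17.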
